A study of Homo sapiens with 6 samples.

Results

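The APOBEC3 genes encode 7 cytidine deaminases, APOBEC3A, APOBEC3B, APOBEC3C, APOBEC3D, APOBEC3F, APOBEC3G and APOBEC3H, that lie side by side on chromosome 22. They were taken by symbol from the 58882 rows of each table, and all 7 had a row. RNA was sequenced from the established line T24, which comes from a transitional cell carcinoma of the human urinary bladder, in 3 libraries of cells carrying the vector (VEC) and 3 libraries of cells carrying the constitutively active RhoC mutant Q63E. Both groups had been transduced with lentivirus and selected with puromycin, so VEC is a control for the virus and the drug but not an untreated line. The labels do not say whether the replicates were separate cultures or whether a group was 1 clone, and the p-values then reflect variation among these libraries alone, part of which could be technical.

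APOBEC3 enzymes convert cytosine to uracil in single-stranded DNA. They are known as restriction factors that mutate the DNA copies of retroviruses and block retrotransposons, and lentiviruses such as HIV answer with the Vif protein, which has several of them degraded. In bladder carcinoma the family is known for clustered C-to-T and C-to-G mutations in the tumour genome, for which APOBEC3A and APOBEC3B are the members most often discussed. Some members are induced by interferon or NF-kB signalling, and the uracil they leave is removed by base excision repair.

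Each deaminase domain holds zinc with a histidine and a pair of cysteines, and a glutamate beside the histidine takes part in catalysis. APOBEC3A, APOBEC3C and APOBEC3H had 1 such motif in their coding sequence, and APOBEC3B, APOBEC3D, APOBEC3F and APOBEC3G had 2. The coding stretches of the motif are shown where they were identical between 2 members, and for APOBEC3C, which moved least. They were read 5′ to 3′ from GENCODE release 29 transcripts on the plus strand of GRCh38, and capitals mark the codons of the histidine, the glutamate and the cysteines.
APOBEC3B, first motif: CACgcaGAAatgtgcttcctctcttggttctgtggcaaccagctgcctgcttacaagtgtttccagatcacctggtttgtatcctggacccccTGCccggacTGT
APOBEC3F, first motif: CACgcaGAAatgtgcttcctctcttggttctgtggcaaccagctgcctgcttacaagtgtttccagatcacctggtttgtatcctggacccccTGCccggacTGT
APOBEC3B, second motif: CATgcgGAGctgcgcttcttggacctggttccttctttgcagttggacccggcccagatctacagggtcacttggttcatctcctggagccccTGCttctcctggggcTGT
APOBEC3A: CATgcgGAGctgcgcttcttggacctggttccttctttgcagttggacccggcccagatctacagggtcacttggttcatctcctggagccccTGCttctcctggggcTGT
APOBEC3D, second motif: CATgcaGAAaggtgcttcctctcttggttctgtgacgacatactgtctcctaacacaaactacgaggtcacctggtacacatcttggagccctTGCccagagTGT
APOBEC3F, second motif: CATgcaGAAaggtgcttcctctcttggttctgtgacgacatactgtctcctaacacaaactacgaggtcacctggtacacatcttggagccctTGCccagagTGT
APOBEC3C: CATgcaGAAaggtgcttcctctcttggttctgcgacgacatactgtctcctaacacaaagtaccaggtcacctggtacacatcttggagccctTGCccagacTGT

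The first stretch of APOBEC3B (chr22:38985833-38985937, exon 3) was identical to that of APOBEC3F (chr22:39044962-39045066, exon 3) at 105 of 105 bases. Its second stretch (chr22:38991365-38991475, exon 6) was identical to that of APOBEC3A (chr22:38961420-38961530, exon 4) at 111 of 111 bases. The second stretches of APOBEC3D (chr22:39031715-39031819, exon 6) and APOBEC3F (chr22:39052095-39052199, exon 6) were identical at 105 of 105 bases. The APOBEC3C stretch (chr22:39017787-39017891, exon 3) matched these last ones at 101 of 105 bases (96.2%), and shared 76.4% of aligned bases with the first one of APOBEC3B. Over a whole transcript, 36.5% of the windows of 100 bases in APOBEC3B also occurred in a transcript of another member. The share was 13.5% for APOBEC3F, 12.7% for APOBEC3A, 11.3% for APOBEC3G, 9.2% for APOBEC3D and 0.0% for APOBEC3C and APOBEC3H. With windows of 50 bases it was 50.5% for APOBEC3B, 22.1% for APOBEC3A and 1.2% for APOBEC3C. How the authors assigned reads from such stretches is not given in the sources used here. Values of APOBEC3A, APOBEC3B, APOBEC3D, APOBEC3F and APOBEC3G may thus hold some of each other's reads, or lack reads that match several members. Either would affect their levels beside that of APOBEC3C, and neither was tested. In GENCODE release 29 the APOBEC3A gene (38952741 to 38992778) also runs over that of APOBEC3B (38982347 to 38992804). Windows of APOBEC3B can therefore match the same stretch of the chromosome listed under APOBEC3A, so its shares are not likeness between separate genes alone. Of its windows of 100 bases, 391 occurred in a transcript of APOBEC3A, while 175 windows of APOBEC3A occurred in one of APOBEC3B.

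The tables held summed values of 726929 to 769026 per library and 20792 to 21379 rows above 0. The unit is taken as FPKM, that is, fragments scaled by transcript length and library size. If so, levels can be set side by side between genes, within the limit of the shared stretches given above. The transduced gene RHOC, which checks the labels, had 231.89, 217.60 and 231.97 FPKM in VEC and 1770.09, 1725.68 and 1743.54 FPKM in Q63E. KRT7, KRT8 and KRT18, keratins of simple epithelia, were high in every library (VEC means of 1031, 581 and 515 FPKM), while UPK3A and KRT5 were listed at 0 throughout. Of 14 urothelial and epithelial markers 6 were tested, and KRT7, KRT8, KRT18 and PPARG were higher in Q63E, where 11.3% of all genes tested were called higher. Their log2 differences were 0.49, 0.76, 0.61 and 0.65 (adjusted p = 0.000359, 2.68e-05, 6.90e-05 and 0.000586 in limma). The largest difference among the 6 tested markers pointed the other way. GATA3, a urothelial transcription factor, had 1.79 ± 1.40 and 0.363 ± 0.352 FPKM (SD, n = 3 each). Its groups overlapped and it did not pass (log2 difference −0.95, adjusted p = 0.121 in limma). EPCAM, of the same list but not tested, had 0.313 ± 0.0404 FPKM in VEC and 1.52 ± 0.202 FPKM in Q63E, without overlap. GATA3 and EPCAM were named after their values were seen. Leukocytes are rich in several APOBEC3 members, and 6 of 12 leukocyte markers, among them PTPRC, CD3E and CD4, were listed at 0 in all 6 libraries. The other 6 never passed 0.680 FPKM, and the 12 together summed to 1.11 to 1.69 FPKM in VEC and 0.780 to 1.11 FPKM in Q63E.

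All 5 members with a mean of at least 1 FPKM over the 6 libraries were lower in Q63E. APOBEC3B, APOBEC3D and APOBEC3F stood at 0.415, 0.420 and 0.432 times their VEC mean, APOBEC3G at 0.492 times and APOBEC3C at 0.764 times. Each of the 5 passed the threshold in limma (adjusted p under 0.05 over 13346 genes), against 25.3% of all genes called in either direction and 14.0% called lower. All 3 Q63E libraries lay under all 3 VEC libraries for each of them, as they did for 22.8% of all genes tested. The call on APOBEC3D was narrow and was lost in most alternatives. In bulk RNA, fewer cells expressing a gene and less RNA per cell cannot be told apart.

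**Figure D1:**
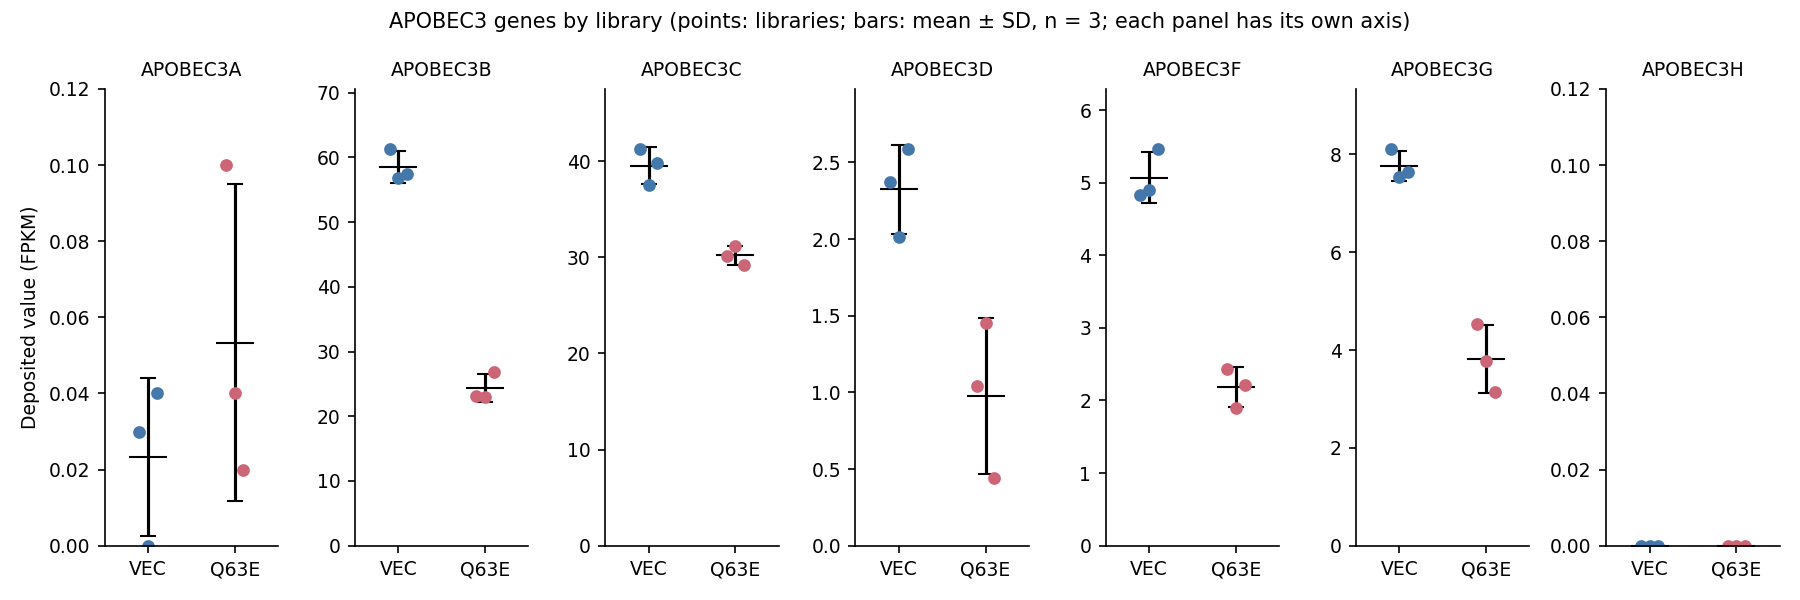
FPKM of the 7 APOBEC3 genes (vertical axes, each panel on its own linear scale from 0) in the VEC and Q63E libraries (points), with the mean and SD of 3 libraries. For APOBEC3B, APOBEC3C, APOBEC3D, APOBEC3F and APOBEC3G every Q63E point lies below every VEC point; APOBEC3A stays at or under 0.10 and APOBEC3H is listed at 0.

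APOBEC3B, a nuclear member with 2 domains, had the highest level in VEC. Its values were 61.37, 56.77 and 57.47 FPKM in VEC and 23.17, 22.95 and 26.80 FPKM in Q63E. The groups lay far apart, with the highest Q63E library under the lowest VEC library by more than the spread within either group. The mean fell from 58.5 ± 2.48 to 24.3 ± 2.16 FPKM (SD, n = 3 each), which is 2.41-fold lower, with a log2 difference of −1.24 (SE 0.0707, adjusted p = 0.000149 in limma). Among 11568 tested protein-coding genes it moved from the 84.1 percentile of VEC means to the 64.0 percentile of Q63E means.

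APOBEC3C, a member with a single domain and a weak restrictor of HIV, moved least. It had 41.31, 37.50 and 39.77 FPKM in VEC and 30.18, 31.17 and 29.24 FPKM in Q63E, and the groups did not overlap. The mean fell from 39.5 ± 1.92 to 30.2 ± 0.965 FPKM (SD, n = 3 each), with a log2 difference of −0.38 (SE 0.0524, adjusted p = 0.00352 in limma). APOBEC3C thus had the higher level of the pair in Q63E, while APOBEC3B had it in VEC. Within a library, the log2 ratio of APOBEC3B to APOBEC3C was 0.56, 0.59 and 0.52 in VEC and −0.37, −0.43 and −0.12 in Q63E. That ratio was positive in every VEC library and negative in every Q63E library (p = 0.1 in an exact permutation test, two-sided, which is the smallest p this design can give).

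APOBEC3G, known as the member that HIV lacking Vif carries into its particles, had 8.12, 7.53 and 7.65 FPKM in VEC and 4.54, 3.78 and 3.14 FPKM in Q63E. The groups did not overlap, and the Q63E libraries were spread more widely than the VEC ones. The mean fell from 7.77 ± 0.312 to 3.82 ± 0.701 FPKM (SD, n = 3 each), with a log2 difference of −0.87 (SE 0.123, adjusted p = 0.00365 in limma).

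APOBEC3F, a related restrictor of HIV with 2 domains, had 4.83, 4.90 and 5.47 FPKM in VEC and 2.44, 1.90 and 2.22 FPKM in Q63E. Again every Q63E library lay under every VEC library. The mean fell from 5.07 ± 0.351 to 2.19 ± 0.272 FPKM (SD, n = 3 each), with a log2 difference of −0.93 (SE 0.114, adjusted p = 0.00223 in limma). Because its first motif stretch is the same as that of APOBEC3B, which lay about an order of magnitude higher, part of this value may be reads of APOBEC3B, which was not tested.

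APOBEC3D, also with 2 domains, had 2.37, 2.01 and 2.59 FPKM in VEC and 1.04, 1.45 and 0.44 FPKM in Q63E. Q63E replicate 3 was the lowest of the 6 libraries and the Q63E group was the more variable. The mean went from 2.32 ± 0.293 to 0.977 ± 0.508 FPKM (SD, n = 3 each), with a log2 difference of −0.78 (SE 0.225, adjusted p = 0.0475 in limma). Its Q63E mean alone was under the minimum of 1 FPKM set for the mean of all 6 libraries. It did not pass in limma when VEC replicate 1 (adjusted p = 0.111), 2 (0.0823) or 3 (0.128) was left out, nor when Q63E replicate 1 (0.0965) or 3 (0.0831) was. Pseudocounts of 0.1 and 0.5 gave larger log2 differences with larger errors, −1.29 (SE 0.417) and −0.99 (SE 0.301), and ended the call too (adjusted p = 0.0640 and 0.0541 in limma). A replicate block, under which 16.5% of all genes were called, left 4 members called and APOBEC3D at an adjusted p of 0.107 in limma.

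APOBEC3A and APOBEC3H were not tested. APOBEC3A, the member with the strongest deaminase activity in many assays, had 0.03, 0.00 and 0.04 FPKM in VEC and 0.10, 0.04 and 0.02 FPKM in Q63E, and the groups overlapped. APOBEC3H was listed at 0 in all 6 libraries. An entry of 0 in an FPKM table may be an estimate that failed, and the depth behind it is unknown. The antisense gene APOBEC3B-AS1 was also listed at 0 in all 6 libraries.

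The summed value of the 7 members was 118.0, 108.7 and 113.0 FPKM in VEC and 61.5, 61.3 and 61.9 FPKM in Q63E, which is 1.84-fold lower in Q63E. APOBEC3B and APOBEC3C made up most of it in every library. APOBEC3B held 52.0%, 52.2% and 50.9% of the sum in VEC and 37.7%, 37.4% and 43.3% in Q63E. APOBEC3C held 35.0%, 34.5% and 35.2% in VEC and 49.1%, 50.9% and 47.3% in Q63E. The shares of both genes separated the groups without overlap, and in opposite directions. As these genes make up most of the sum, a lower share of one largely fixes a higher share of the other. In FPKM both fell. The shares of APOBEC3G (6.86% ± 0.0801 in VEC and 6.21% ± 1.16 in Q63E) and of APOBEC3D (2.05% ± 0.225 and 1.59% ± 0.832, SD, n = 3 each) overlapped between groups. That of APOBEC3F was 4.48% ± 0.375 and 3.55% ± 0.436.

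**Figure D2:**
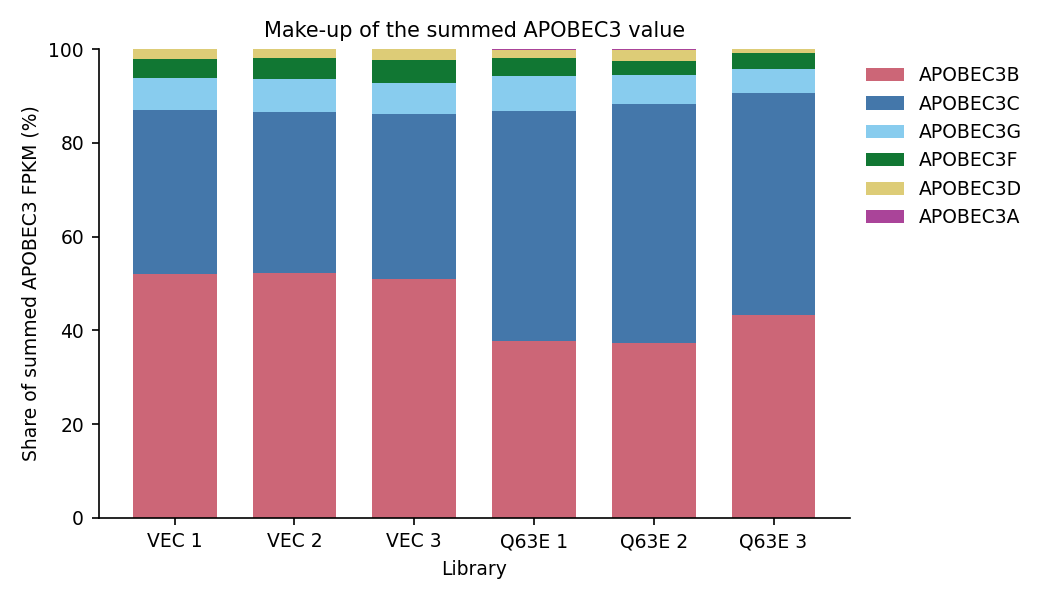
Share of the summed APOBEC3 FPKM in percent (vertical axis) held by each member in each of the 6 libraries (bars). APOBEC3B is the largest part in the 3 VEC libraries, at 50.9% to 52.2%, and APOBEC3C in the 3 Q63E libraries, at 47.3% to 50.9%.

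In VEC the order of levels was APOBEC3B, APOBEC3C, APOBEC3G, APOBEC3F and APOBEC3D, and in Q63E the first pair changed places. Neighbours in either order did not overlap among these 5 genes. The gap below APOBEC3C was wide: its mean was 5.09 times that of APOBEC3G in VEC, and in Q63E APOBEC3B stood 6.36 times above APOBEC3G. Ratios within a library were compared for all 10 pairs of tested members, and 6 pairs did not overlap between groups. The pairs share genes. How often pairs of other genes separate the groups was not computed, so this count has no background. For these 6 pairs the exact two-sided permutation p was 0.1, or 0.167 adjusted over the 10 pairs, so this design cannot pass the threshold. The 4 pairs with APOBEC3C separated the groups with a pseudocount of 1 and with 0.1. The pairs of APOBEC3B with APOBEC3F and with APOBEC3G separated them with a pseudocount of 1 but overlapped with 0.1. On the log2(FPKM + 1) scale the differences of the low members are understated, and with a pseudocount of 0.1 those of APOBEC3B and APOBEC3F were −1.27 and −1.18.

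The members lie in a stretch of chromosome 22 where most genes were lower in Q63E. The cluster runs from 38952741 to 39104067 on GRCh38, and 62 other genes within 2 Mb of it were tested. Of these, 54 had a log2 difference below 0, 41 fell and 1 rose, with a median of −0.50. Over all genes tested the median was −0.00, with 14.0% called lower and 11.3% higher. On the side before the cluster 29 of 44 fell (median −0.54) and on the side after it 12 of 18 (median −0.42). Within 5 Mb 74 of 116 fell (median −0.46), and over the rest of the chromosome 60 of 218 (median −0.10). The lower stretch did not end at 5 Mb on the side after the cluster. There ATXN10 (6.73 Mb from its centre, log2 difference −0.78), PPARA (7.17 Mb, −0.72) and GRAMD4 (7.60 Mb, −0.66) were called lower. WNT7B (6.92 Mb, −0.17) and CELSR1 (7.42 Mb, 0.10) were not called. These genes were named after their values were seen.

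**Figure D3:**
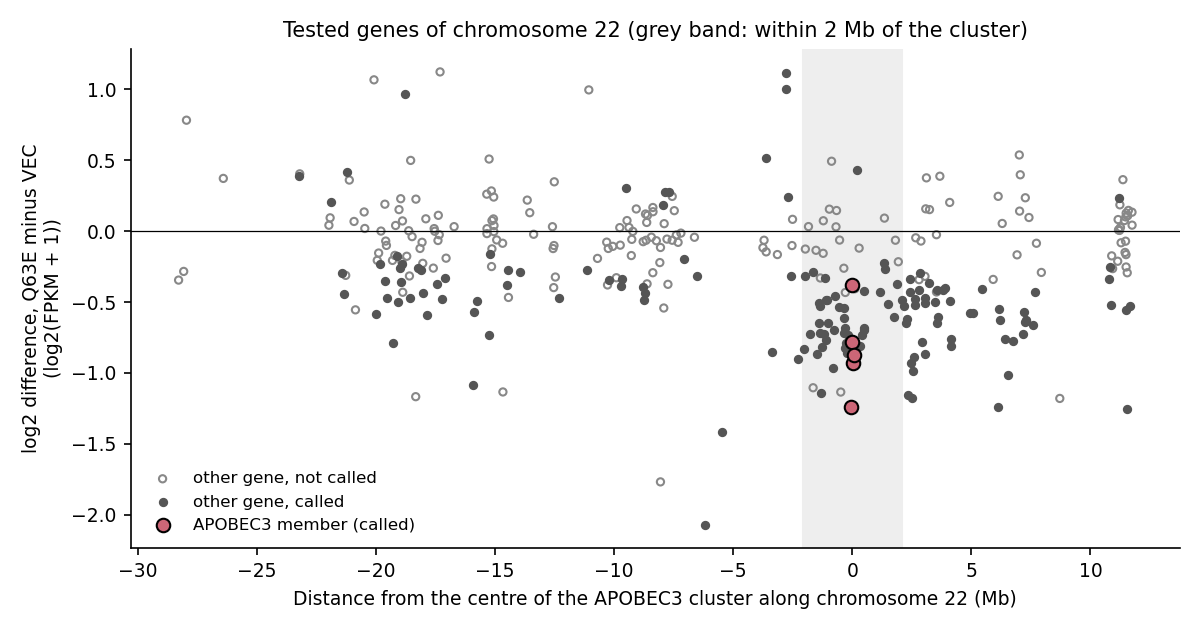
Log2 difference of Q63E minus VEC on the log2(FPKM + 1) scale (vertical axis) for every tested gene of chromosome 22, by distance in Mb from the centre of the APOBEC3 cluster (horizontal axis). Filled points passed the threshold in limma and large points are the 5 tested members. Genes in the grey band centre on −0.50, and APOBEC3B at −1.24 is the lowest point in it.

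CBX6, a Polycomb chromobox gene and the nearest tested gene before the cluster (38861450 to 38872314), had 20.27, 22.80 and 21.54 FPKM in VEC and 13.42, 12.11 and 12.19 FPKM in Q63E. It fell by 0.73 on the log2 scale (adjusted p = 0.000824 in limma). CBX7, a relative of CBX6 and the nearest after the cluster (39120167 to 39152674), went from 3.60 ± 0.638 to 2.46 ± 0.342 FPKM (SD, n = 3 each) and did not pass (adjusted p = 0.0906 in limma).

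Within 0.5 Mb of the cluster 20 of 21 tested genes had a log2 difference below 0, 14 fell and 1 rose. Their median was −0.68, against −0.50 within 2 Mb and −0.87 for the 5 tested members. The 4 with the highest mean, chosen for level alone, were RPL3, ATF4, DDX17 and RPS19BP1. RPS19BP1, which binds a ribosomal protein, fell from 110 ± 6.49 to 67.0 ± 1.86 FPKM (adjusted p = 0.000368 in limma). ATF4, a transcription factor of the stress response, fell from 606 ± 18.8 to 451 ± 27.5 FPKM (adjusted p = 0.00206 in limma). The ribosomal protein gene RPL3 (1922 ± 28.2 and 1769 ± 61.6 FPKM) and the RNA helicase gene DDX17 (144 ± 5.56 and 138 ± 2.82 FPKM; SD, n = 3 each) did not pass. PDGFB, a growth factor subunit gene and the 1 flanking gene that rose, had 31.18, 31.50 and 33.93 FPKM in VEC and 44.97, 45.36 and 41.18 FPKM in Q63E (adjusted p = 0.00302 in limma) and is named to complete the count. APOBEC3C, at 0.764 times its VEC mean, stood near ATF4 at 0.745 times.

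Set against these neighbours, the members differed among themselves. By log2 difference 0 of the 62 flanking genes were as low as APOBEC3B, 4 as low as APOBEC3F, 4 as low as APOBEC3G, 11 as low as APOBEC3D and 39 as low as APOBEC3C. By the ratio of means, on which no pseudocount acts, APOBEC3B, APOBEC3D and APOBEC3F stood alike, with 2 flanking genes at or under each of them, and there were 4 for APOBEC3G and 39 for APOBEC3C. At or under APOBEC3B were DMC1, whose VEC libraries ran from 0.11 to 5.37 FPKM and overlapped Q63E, and ENSG00000100101, at 2.41 ± 0.208 and 0.583 ± 0.418 FPKM. Both were named after their values were seen. The median ratio over the flanking genes was 0.684.

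When the median deviation of the flanking genes was subtracted in each library, APOBEC3B had a log2 difference of −0.73 (SE 0.0792, adjusted p = 0.00145 in limma) and APOBEC3F one of −0.42 (SE 0.116, adjusted p = 0.0412). Both still passed. In that fit 25.1% of all genes were called, but the subtraction acted only on genes within the window. That share therefore comes mostly from genes left as measured, and it is no background for subtracted genes. The share of flanking genes still called is not given here. APOBEC3G no longer did (−0.36, adjusted p = 0.0713), although it passed with a window of 5 Mb (−0.41, adjusted p = 0.0498 in limma, 25.1% of all genes called). With a pseudocount of 0.1, under which 25.5% of all genes were called, APOBEC3G missed the threshold by little (−0.48, adjusted p = 0.0504 in limma). APOBEC3D did not pass (−0.27, adjusted p = 0.397), and APOBEC3C turned to 0.13 (adjusted p = 0.115 in limma). The median deviation itself was −0.52, −0.47 and −0.53 in the Q63E libraries and −0.00, 0.02 and −0.01 in the VEC libraries. The SE and adjusted p of these fits treat the subtracted median as known and leave out its own error, which bears on the narrow calls. What the shared shift of this region contributes to each member was not tested beyond this subtraction.

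**Figure D4:**
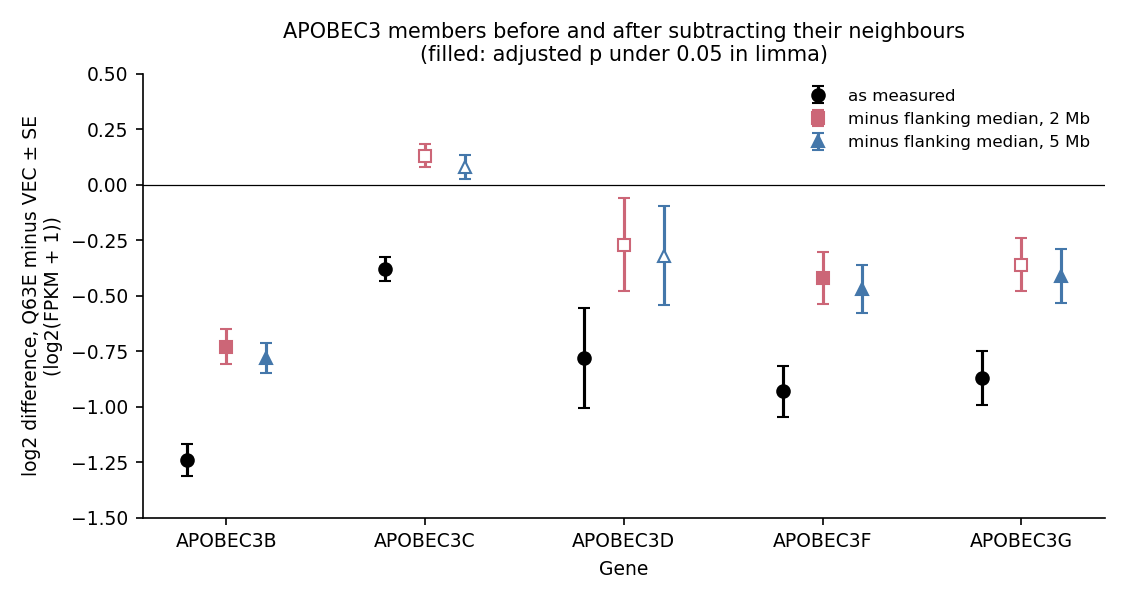
Log2 difference of Q63E minus VEC with its SE, on the log2(FPKM + 1) scale (vertical axis), for the 5 tested members as measured and after subtraction of the median of flanking genes within 2 or 5 Mb. Filled symbols have an adjusted p under 0.05 in limma. APOBEC3B stays lowest, at −0.73 with the 2 Mb window, and APOBEC3C moves to 0.13.

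The genes whose profile over the 6 libraries lay closest to that of APOBEC3B were TNFSF9, a ligand of the TNF family, CPT1A, the carnitine transferase that lets fatty acids into mitochondria, and the phosphodiesterase gene PDE1C. Likeness was the root mean square distance of log2(FPKM + 1) after subtraction of the VEC mean, and it was 0.0325, 0.0716 and 0.0768 among 11567 protein-coding genes. CPT1A had 10.59, 9.71 and 11.04 FPKM in VEC and 3.80, 3.77 and 3.97 FPKM in Q63E. TNFSF9 went from 4.09 ± 0.201 to 1.22 ± 0.243 FPKM and PDE1C from 3.15 ± 0.0819 to 0.747 ± 0.136 FPKM (SD, n = 3 each). The likeness holds on the log2(FPKM + 1) scale, where differences of low genes are understated. By the ratio of means TNFSF9, CPT1A and PDE1C stood at 0.298, 0.368 and 0.237 times VEC, lower than APOBEC3B at 0.415 times. As they were picked for this likeness, no test is given.

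Other deaminases were at or near 0 or moved in both directions. The relatives APOBEC1, APOBEC2 and APOBEC4 had no library above 0.0400 FPKM. Of the enzymes that edit adenosine in RNA, ADARB1 rose from 59.6 ± 2.98 to 87.0 ± 4.25 FPKM (adjusted p = 0.00111 in limma). ADAR fell from 54.2 ± 1.09 to 46.9 ± 1.88 FPKM (adjusted p = 0.0177 in limma), and ADARB2 was not tested.

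Genes that handle uracil and abasic sites in DNA were mostly not called: 2 of 11 fell and 0 rose in limma (3 lower and 0 higher at an unadjusted p under 0.05), with a median of −0.09. Over all genes 14.0% were called lower, so this count is near the background. UNG, the main uracil DNA glycosylase, fell from 47.2 ± 1.27 to 39.8 ± 1.68 FPKM. HMCES, which shields abasic sites in single-stranded DNA, fell from 34.8 ± 1.86 to 26.8 ± 0.659 FPKM (adjusted p = 0.0134 and 0.00423 in limma). None of 7 genes of translesion synthesis, which copies across such sites, passed in limma (1 lower and 0 higher at an unadjusted p under 0.05, median 0.00). In that list REV1 had 21.9 ± 2.06 and 17.1 ± 2.27 FPKM, and MAD2L2 71.9 ± 3.13 and 74.2 ± 1.07 FPKM (SD, n = 3 each).

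Among 12 interferon and NF-kB transcription factors 4 fell and 1 rose (median −0.16), against 14.0% called lower and 11.3% higher over all genes tested. RELB went from 17.1 ± 1.05 to 9.21 ± 0.537 FPKM, NFKB1 from 30.4 ± 2.05 to 19.5 ± 1.82 FPKM and NFKB2 from 103 ± 5.41 to 84.4 ± 4.07 FPKM. RELA had a log2 difference of −0.18 (adjusted p = 0.0254 in limma), while REL, another NF-kB subunit, did not pass (0.04, adjusted p = 0.880 in limma). RELA is named to complete the count and REL was chosen after its value was seen. STAT2, part of the interferon-activated complex, rose from 12.1 ± 0.734 to 16.5 ± 1.36 FPKM. Of 14 genes of the DREAM complex, B-MYB, FOXM1 and TEAD factors, which have been linked to control of APOBEC3B, 3 fell and 2 rose (median −0.01), near the 14.0% called lower and 11.3% called higher over all genes. TFDP1 fell from 122 ± 10.4 to 92.3 ± 4.71 FPKM and LIN54 from 10.4 ± 0.320 to 7.92 ± 0.436 FPKM. The third, MYBL2, had a log2 difference of −0.12 (adjusted p = 0.0411 in limma) and is named to complete the count. TEAD1 rose from 20.3 ± 1.05 to 28.8 ± 0.592 FPKM and RBL2 from 15.0 ± 0.745 to 19.5 ± 0.325 FPKM (SD, n = 3 each).

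Of 14 other tested restriction factors of retroviruses, 8 fell and 3 rose, with a median of −0.53, where 14.0% of all genes were called lower and 11.3% higher. IFITM2 and IFITM1, membrane proteins that hinder viral entry, fell from 76.3 ± 7.45 to 33.9 ± 3.03 FPKM and from 5.53 ± 0.999 to 2.04 ± 0.883 FPKM. IFITM1 (plus strand of chromosome 11, 313506 to 315272) lies within the listed span of IFITM2 (307631 to 315272). Whether their values share reads was not tested. The exonuclease gene ISG20 fell from 10.4 ± 1.74 to 4.24 ± 1.27 FPKM (SD, n = 3 each). MOV10, an RNA helicase, went the other way, from 32.4 ± 4.71 to 92.1 ± 8.76 FPKM (log2 difference 1.48, adjusted p = 0.000441 in limma). MOV10 (plus strand of chromosome 1, 112673141 to 112700746) ends just before the end of RHOC (minus strand, 112701106 to 112707434), the transduced gene, and whether reads from there enter its value was not tested. SLFN11 and SERINC3 rose as well, by 0.40 and 0.21 on the log2 scale (adjusted p = 0.0102 and 0.0189 in limma), and are named to complete the count. Of 7 genes of the ubiquitin ligase that Vif recruits, 1 fell, 1 rose and 5 were not called (median 0.04). These counts are near the 14.0% called lower and 11.3% called higher over all genes. ELOC fell from 115 ± 6.19 to 80.4 ± 2.24 FPKM and ARIH2 rose from 43.6 ± 3.34 to 51.9 ± 2.01 FPKM (adjusted p = 0.000936 and 0.0337 in limma).

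**Figure D5:**
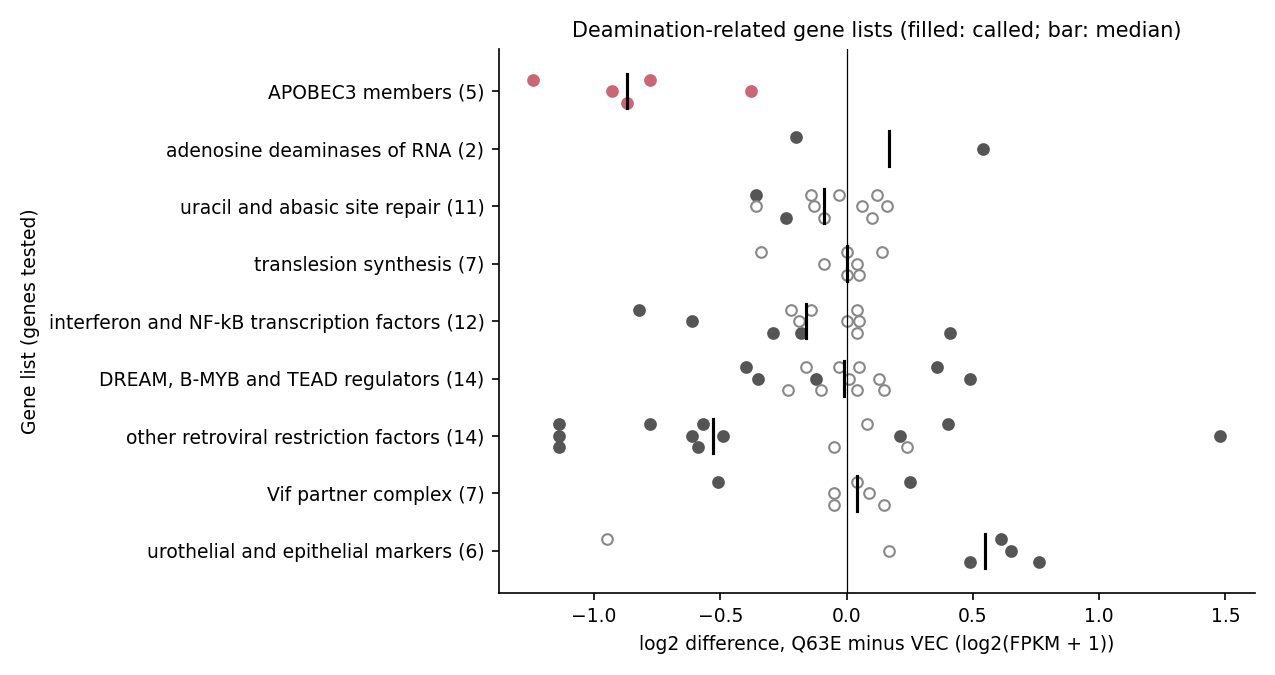
Log2 difference of Q63E minus VEC on the log2(FPKM + 1) scale (horizontal axis) for the tested genes of each list (rows), with filled points for genes past the threshold in limma and a bar at the median. The 5 APOBEC3 members run from −1.24 to −0.38 with a median of −0.87, and MOV10 at 1.48, beside RHOC on chromosome 1, is the highest point.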

How the data were processed

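RNA sequencing libraries of T24 cells (3 VEC, 3 Q63E) were analysed. The authors deposited a separate table of 58882 rows for every library. The unit of the deposited values is not named in the file headers and is treated as FPKM. HISAT2 2.1.0, Bowtie2 and GRCh38.p10 are named in the submitters' processing notes, with no role; the counting program, annotation, strand and read length are not given in these sources. Total counts per library are therefore unknown, and no counting interval is given.

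Of the rows, 649 named no gene and were left out of the tests. Symbols came from a gene table, and positions and transcripts from GENCODE release 29 on GRCh38. Values were transformed as log2(FPKM + 1). Genes whose mean over the 6 libraries reached 1 were tested with limma 3.58.1 (lmFit, eBayes with trend) in R 4.3.3 on group alone, two-sided, with p-values adjusted by Benjamini-Hochberg across the 13346 genes and called under 0.05. The limma fit alone was tested on simulated data. Ratios between groups are ratios of mean FPKM. A flanking gene is a tested gene within 2 Mb of the cluster that is not a member. In one alternative the median deviation of these genes from their VEC means was subtracted per library. It was subtracted only from the members and the other genes within the window. Other alternatives changed the pseudocount, filter, scaling, variance trend and block, or left out 1 library.

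Members and gene lists were chosen with earlier results of these data known. Named genes are the members, RHOC, up to 4 called genes per list with the largest difference (or the 2 with the highest mean if none was called), the nearest tested gene on each side of the cluster, 4 further genes within 0.5 Mb with the highest mean, and the 3 protein-coding genes whose profile lay closest to that of APOBEC3B. Others are said to be chosen after their values were seen.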

Additional observations from a re-analysis of the deposited data

How the results depend on the processing

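APOBEC3B and APOBEC3F kept their direction and their call under all 18 alternatives, with log2 differences from −1.31 to −0.73 and from −1.18 to −0.42. RHOC kept its call under all 15 alternatives run for it. With the flanking median subtracted, 2 members were called (2 Mb), 3 (5 Mb) and 2 (2 Mb with a pseudocount of 0.1, an alternative chosen after the data were seen). APOBEC3C then had log2 differences of 0.13, 0.08 and 0.15, APOBEC3D −0.27, −0.32 and −0.75 and APOBEC3G −0.36 (2 Mb) and −0.48 (2 Mb with a pseudocount of 0.1), none of which passed in limma. By construction the subtraction takes out what the members share with their neighbours.

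APOBEC3D passed under 4 of 18 alternatives. It did not pass with a pseudocount of 0.1 (−1.29) or 0.5 (−0.99), with no filter or a minimum mean of 0.1 (−0.78 each), after division by each library's summed value (−0.85) or with a replicate block (−0.78). Without 1 library its difference ran from −0.95 to −0.57, and it passed only without Q63E replicate 2. The cause was not tested. With the replicate block, 2208 genes were called in place of 3383, and 4 of the 5 tested members. The labels do not say whether equal replicate numbers mark a pairing. Deviations of same-numbered libraries correlated across genes at −0.042 to −0.009, and 0 of 6 libraries correlated best with its own number. That shows no sign of pairing, but a shared day or batch was not tested. Depth is unknown, so values near 0 cannot be given a limit.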
